A study of Camelus dromedarius with 4 samples.

Results

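The cytosolic ribosomal proteins are described here in the supraoptic nucleus of the dromedary camel (Camelus dromedarius) in winter and in summer. The members were chosen by symbol from a deposited table of season means: symbols that start with RPL or RPS followed by a digit, together with RPSA, RPLP0, RPLP1 and RPLP2, without the RPS6 kinases, and with a mean in both seasons. Of the 91 symbols that match by name, 87 carry both means, among the 16053 symbols of the table that do. The other 4, RPL32-PS, RPS10, RPS27|RPS27L and RPS3-A, are listed without them. The 87 comprise 45 proteins of the large (60S) subunit, 30 proteins of the small (40S) subunit, 7 paralogues and 5 symbols that match by name alone (RPL19B, RPL37A-PS1, RPS19BP1, RPS3A-B and RPS4). Of the 46 large and 31 small subunit symbols searched for, RPL41 and RPS10 were the core proteins without means. By symbol, 80 of the 87 matched a RefSeq gene of the dromedary assembly mCamDro1.pat, and all 80 were annotated there as protein coding.

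Total RNA from the supraoptic nucleus was sequenced after removal of ribosomal RNA, from replicates 2 and 3 in winter and replicates 1 and 2 in summer, 4 libraries in all. The animals were healthy, age-matched adult male camels of the Tergui breed, which the study describes as fully hydrated before slaughter. No treatment other than the season is named. The winter animals were slaughtered at El Oued in January and the summer animals at Ouargla in June, so season, place and animal cannot be told apart. Between 4379162 and 6902037 reads per library were counted on 64989 gene models, which is 20.7% to 27.8% of the tallied alignments. Another 20.2% to 26.9% of the alignments were not unique, a point that bears on ribosomal proteins because mammalian genomes carry many processed copies of their genes. Both ends of that range were summer libraries, with replicate 1 at 26.9% and replicate 2 at 20.2%. The winter libraries were at 25.7% (replicate 2) and 22.7% (replicate 3).

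Each ribosome is built from a small subunit, which reads the mRNA, and a large subunit, which joins amino acids, and most ribosomal proteins are present in a single copy per particle. Their mRNAs begin with a terminal oligopyrimidine (TOP) tract, through which the mTORC1 kinase complex controls their translation, and their transcripts are among the most abundant in most cells. The supraoptic nucleus holds the magnocellular neurones, which synthesise and secrete the peptide hormones vasopressin and oxytocin, and glia and capillaries lie among them. A sample of this tissue therefore mixes the ribosomal protein mRNAs of all its cell types. In such bulk samples, fewer cells of a type and less RNA per cell cannot be told apart.

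The values given as season means are the authors' means of read counts divided by a size factor per library, so they are comparable between seasons for 1 gene. They are not divided by transcript length, and levels are therefore not compared between genes. Differences between seasons are given as the log2 of the winter mean over the summer mean, after adding 1 to both, so that a negative value is a higher summer mean. Because the members were proposed with this contrast known, the season differences are a description and carry no test. With 2 libraries against 2, the smallest two-sided p of an exact permutation test would be 0.333.

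Most ribosomal protein symbols had a higher mean in summer, by a modest amount. The summer mean was the higher of the pair for 73 of the 87 symbols and the winter mean for 14. Among all 16053 symbols, 53.8% had a higher summer mean. The median log2 ratio of the 87 was -0.38, with quartiles of -0.55 and -0.16, and that of all symbols was -0.04, with quartiles of -0.34 and 0.29. Restricted to symbols with a mean of 10 or more in either season, 70 of 80 members had a higher summer mean, where 53.8% of the 13811 symbols did. The means of the 87 summed to 75518 in summer and 58434 in winter, so the summer sum was 1.29 times the winter sum. They made up 2.20% of the summed means of all symbols in summer and 1.67% in winter. The 2 summer libraries stood apart in these genes. For the 26 members whose summer reads could be resolved by library, the median log2 ratio of the winter mean was -0.51 against one summer library and -0.03 against the other, as set out after the members. Among all symbols resolved in this way with a mean of 10 or more, these medians were 0.09 and -0.02.

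**Figure D1:**
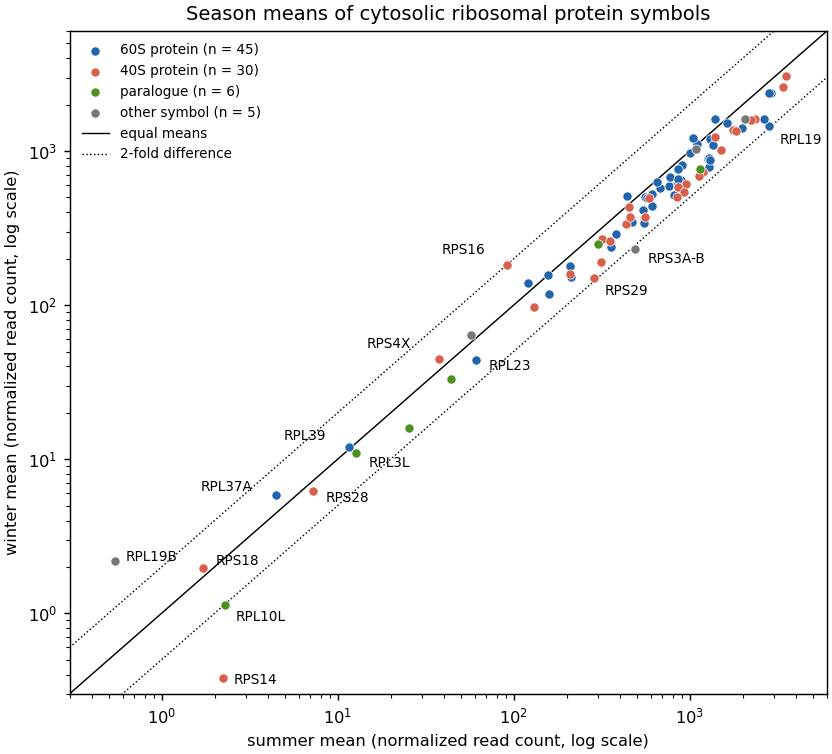
The summer mean (x axis) and the winter mean (y axis) of each ribosomal protein symbol are plotted in normalized read counts on log scales, coloured by class, with the line of equal means and dotted lines at a 2-fold difference. RPL39L, with a summer mean of 0, cannot be drawn on the log scale, which leaves 86 of the 87 symbols. Most points lie just below the line of equal means, and RPS16 and RPS3A-B are the symbols with a mean above 10 that reach a 2-fold difference.

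Few of the differences were large. A summer mean more than 2 times the winter mean was found in 3 members (RPS3A-B, RPS14 and RPL10L), a fold passed by 7.60% of all symbols in that direction. A winter mean more than 2 times the summer mean was found in 3 members (RPS16, RPL19B and RPL39L), against 5.30% of all symbols. Only RPS3A-B and RPS16 among these had a mean of at least 10. At 1.5-fold, 17 members were higher in summer, where 15.6% of all symbols were, and 3 were higher in winter, where 12.8% of all symbols were. Since the members were proposed with this contrast in view, nothing is read from these shares beyond the values.

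The core proteins of both subunits had the same direction. In the large subunit, 37 of 45 proteins had a higher summer mean, the median log2 ratio was -0.31 and the summed summer mean was 1.26 times the winter one. In the small subunit, 27 of 30 had a higher summer mean, the median was -0.43 and the summed ratio was 1.35. The difference between the subunits was not tested.

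RPL5 and RPL11 bind the 5S ribosomal RNA and, outside the ribosome, the p53 regulator MDM2. RPL5 had means of 2825 in summer and 2378 in winter (log2 ratio -0.25). RPL11 had means of 1628 and 1533, a log2 ratio of -0.09. Both therefore had a higher summer mean, and the difference in RPL11 was among the smallest of the core proteins.

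The stalk of the large subunit recruits the factors that drive elongation, and it consists of RPLP0, RPLP1 and RPLP2 with RPL12 at its base. All 4 had a higher summer mean, with a median log2 ratio of -0.29. RPLP2 had means of 614 in summer and 438 in winter (log2 ratio -0.49), whereas its partner RPLP1 had 656 and 629.8 (log2 ratio -0.06). RPL12 had means of 764 and 591. The proteins of the stalk, which assemble in fixed numbers, had unequal season ratios of their mRNA means.

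The nascent chain leaves the ribosome through a tunnel, and 9 members line it or ring its exit. Of these, 7 had a higher summer mean and the median log2 ratio was -0.47. RPL19, which also forms a bridge to the small subunit, had means of 2815 in summer and 1452 in winter, the largest summer excess of any large subunit protein with a log2 ratio of -0.95. RPL31 followed with 811 and 519, then RPL17 with 1288 and 898, RPL26 with 858 and 614, and RPL4 with 1973 and 1422. RPL23A, a contact of the signal recognition particle, went the other way, with 1392 in summer and 1615 in winter (log2 ratio 0.21). Its neighbour RPL35 had 1358 and 1097. RPL39, the smallest protein of the tunnel, was low throughout, with recovered reads of 14 and 7 in summer, against 15 and 12 in winter.

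RPL3, RPL8 and RPL10 lie nearest the peptidyl transferase centre, where peptide bonds form. RPL3 had means of 2896 in summer and 2373 in winter, RPL10 had 1004 and 979, and RPL8 had 439 and 509. Of the 3, RPL8 was the one with a higher winter mean, at a log2 ratio of 0.21. RPL10, at -0.04, came out level between the seasons when these were centred on the median ratio of symbols with a mean of at least 10. The remaining large subunit proteins with the largest summer excess were RPL14 (1297 and 793, log2 ratio -0.71) and RPL7 (2648 and 1623, also -0.71).

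In the small subunit, RPS2, RPS3 and RPS9 stand at the mRNA entry, and RPS15 and RPS23 reach the decoding centre. All 5 had a higher summer mean, with a median log2 ratio of -0.43. RPS23 had means of 315 in summer and 192 in winter (log2 ratio -0.71), RPS15 had 953 and 615 (-0.63) and RPS3 had 1836 and 1361 (-0.43). RPS2, the core protein with the most reads, had 3549 and 3057 (-0.22), and RPS9 had 454 and 431 (-0.08).

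Proteins on the side where mRNA leaves had a median log2 ratio of -0.71, and all 5 had a higher summer mean. RPS3A had means of 1187 and 727 (log2 ratio -0.71). RPS26, which contacts the mRNA upstream of the start codon, had 319 and 269. RPS14 and RPS28 were too low to compare, as described next.

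A few core proteins had hardly any reads. RPS14, RPS18, RPL37A and RPS28 had means under 10 in both seasons and RPL39 under 20, whereas the average of both means was higher in the other 70 of the 75 core proteins, from 41.2 in RPS4X to 3303 in RPS2. RPS14 had 2 and 2 recovered reads in summer, against 1 and 0 in winter, and RPS18 had 0 and 3 in summer, against 1 and 3 in winter. At these counts, at or below a floor of 3 reads per library, no fold is interpretable. RPS28 had 6 and 7 summer reads and 8 and 6 winter reads, and RPL37A had 3 and 5 in summer, against 3 and 9 in winter. These proteins belong to the standard ribosome, and the low counts describe the reads assigned to the symbol in this assembly and annotation. Whether reads of these genes went to another gene model or were set aside as not unique was not tested.

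Several symbols with such a counterpart in name were well covered. RPL37A-PS1, whose name marks a copy of RPL37A, had means of 1080.5 in summer and 1032 in winter. RPS4, which carries no X or Y suffix, had 2068 and 1619, while RPS4X had 37.8 and 44.6. RPS3A-B had 490.1 and 232, a summer mean 2.12 times the winter mean, beside RPS3A itself at 1.63 times. RPL19B had 1 and 0 summer reads and 3 and 2 winter reads, beside RPL19 at means of 2815 and 1452. How reads were split between each of these symbols and its namesake cannot be read from a table of means.

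**Figure D2:**
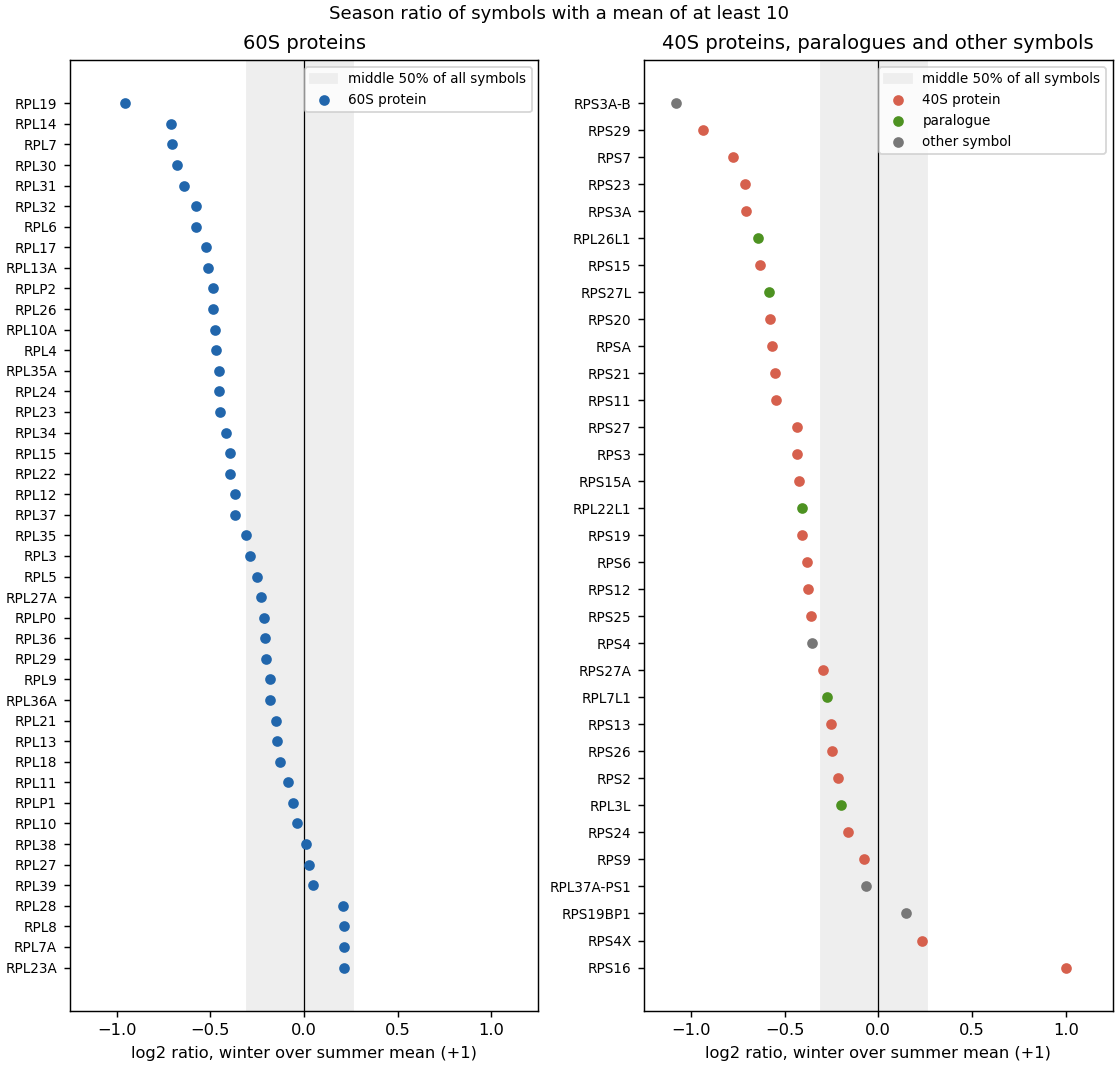
The log2 ratio of the winter over the summer mean (each plus 1) is shown on the x axis for 76 of the 80 symbols with a mean of 10 or more in either season, with the large subunit on the left and the small subunit, the paralogues and the other symbols on the right. The grey band spans the middle 50% of all symbols with such a mean. Most symbols lie left of 0, RPL19, RPS3A-B and RPS29 lie farthest left, and RPS16 stands alone on the right at 1.00.

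The largest log2 ratios toward summer among members with a mean of at least 10 belonged to RPS3A-B, RPL19, RPS29 and RPS7. RPS29, a small zinc-binding protein of the 40S head, had means of 286 and 149 (log2 ratio -0.93). RPS7 had 930.1 and 543 (-0.78). Toward winter, the 5 largest belonged to RPS16, RPS4X, RPL23A, RPL7A and RPL8. RPS16, whose tail reaches the tRNA in the P site, had means of 91.3 in summer and 183 in winter, a winter mean 2.01 times the summer mean. The next, RPS4X, was at a log2 ratio of 0.23, so RPS16 stood well apart from the other members of that direction with such a mean.

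Mutations in ribosomal protein genes cause Diamond-Blackfan anaemia, and 8 of the 9 such genes searched for were members, RPS10 being the exception. All 8 had a higher summer mean, with a median log2 ratio of -0.33. They ranged from RPS7 at -0.78, through RPL35A (211 and 153) and RPS19 (210.3 and 158), to RPS24 (1386 and 1237) and RPL11 at -0.09. Members with a known part in signalling also had higher summer means in 5 of 5. RPS6, the substrate of the S6 kinases, had means of 3414 and 2627. RPSA, which also serves as a laminin receptor, had 1506 and 1016. RPL13A, which can leave the ribosome to silence inflammatory mRNAs, had 1275 and 895, and RPS27A, which is made as a fusion with ubiquitin, had 458 and 373.

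The paralogues replace or resemble a core protein in some tissues, and 6 of 7 had a higher summer mean. RPS27L, a p53 target that resembles RPS27, had means of 1151 and 766, and RPS27 had 353 and 261. A joint entry, RPS27|RPS27L, is listed without means, and RPS27L matched no RefSeq gene by symbol. How reads were split between these symbols was not tested. RPL7L1 had 302 and 250.1, RPL22L1 had 44.3 and 33.1, and RPL26L1 had 25.3 and 15.9. RPL3L, known from muscle, had 12.8 and 11.0. The testis forms were at the floor, RPL10L with 0 and 4 summer reads and 3 and 0 winter reads, and RPL39L with 0 and 0 in summer, against 3 and 1 in winter. RPS19BP1, which is no ribosomal protein but a partner of RPS19, had means of 57.3 and 63.6.

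Ribosomal proteins named outside the rule were few. FAU, which encodes RPS30 as a ubiquitin-like fusion, had means of 49.5 in summer and 44.3 in winter. The scaffold RACK1, listed as GNB2L1, had 1355 and 924, a log2 ratio of -0.55.

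The season means hide how the 2 libraries of a season differ. Because each mean is a sum of whole reads weighted by the size factors, the reads of both libraries can be solved for where the mean is low enough to leave a single solution. Library 1 below is the library of the larger size factor in its season (0.922 in summer, 1.33 in winter) and library 2 the other (0.877 and 0.946). The recovery does not say which replicate number each one is. Over the 9871 symbols resolved in both seasons, summer library 1 had fewer whole reads than summer library 2 (375987 against 438598). On gene models, summer replicate 1 had fewer reads than summer replicate 2 (4406533 against 5520242). Whether summer library 1 is replicate 1 was not tested. It gave a single solution in summer for 33 members, of which 26 had a mean of at least 10, and in both seasons for 19 members, of which 12 had such a mean. The summer means of the other 54 members with a mean of at least 10 have several solutions. The highest summer mean resolved was 472.

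Within summer, the members were not level. Of the 26 with a mean of at least 10, 20 (76.9%) had more normalized reads in summer library 1 than in summer library 2, with a median log2 ratio of 0.40. Among the 11858 symbols resolved in the same way, 44.9% were higher in library 1, with a median of -0.09. The difference held in both subunits, at 9 of 11 large subunit proteins (median 0.58) and 7 of 10 small subunit proteins (median 0.40). Among the 6 members that were not higher in library 1 were RPL7A, RPS16, RPS19BP1, RPS4X and RPS9. In winter, 5 of the 12 resolved members were higher in library 1, with a median of -0.03. These are shares over genes of single libraries, which no replicate stands behind.

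**Figure D3:**
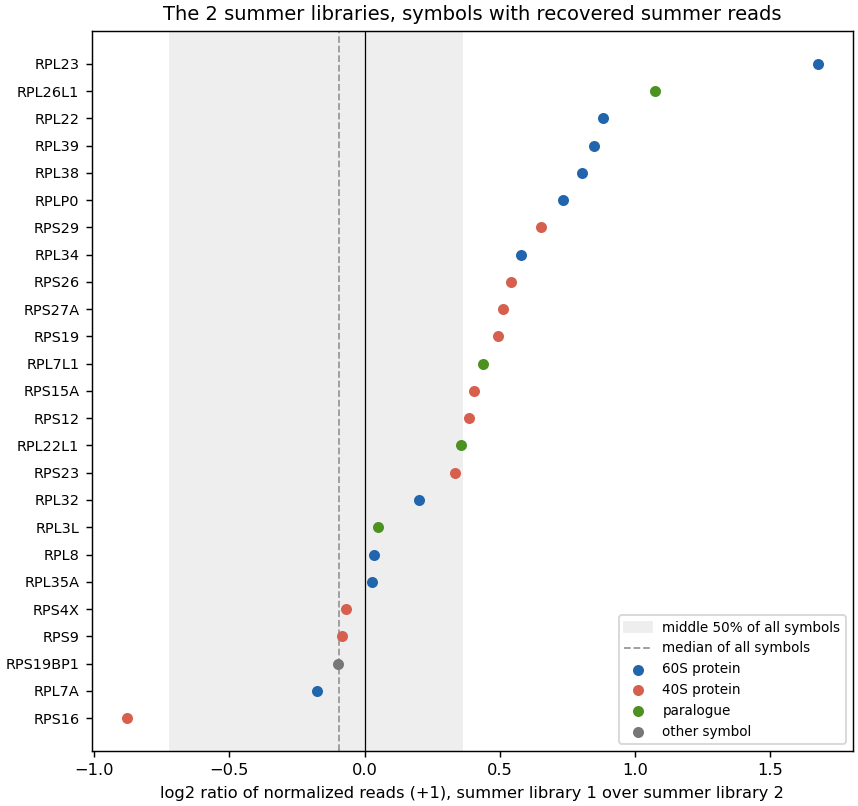
The log2 ratio of normalized reads (plus 1) in summer library 1 over summer library 2 is shown on the x axis for 25 of the 26 members resolved in summer with a mean of at least 10. The grey band and the dashed line give the middle 50% and the median of all symbols resolved in the same way. RPL23 and RPL26L1 lie farthest to the right, 20 points lie right of 0, and RPS16 is the only point beyond the band on the left.

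The members resolved in all 4 libraries show the split directly. RPL23, which can bind MDM2, had 93.3 and 28.5 normalized reads in the summer pair of libraries, against 42.3 and 46.5 in winter. Both winter libraries lay between the 2 summer libraries, so its higher summer mean rested on library 1. RPL38, known in the mouse for its part in translating Hox mRNAs, had 199.5 and 114 in summer, against 139 and 177 in winter, again with winter in between. RPL39 had 15.2 and 7.98 in summer, against 11.3 and 12.7 in winter.

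Other members were higher in both summer libraries. RPS29 had 350.3 and 222 normalized reads in summer, against 123 and 176 in winter, from 323, 195, 163 and 166 whole reads, and the lower summer value stood clear of the higher winter value. RPS15A had 149.6 and 113 in summer, against 104 and 91.0 in winter. RPL34 had 191 and 128 in summer, against 121 and 117 in winter, and RPL22L1 had 49.9 and 38.8 in summer, against 32.4 and 33.8 in winter. RPL26L1 had 34.7 and 16.0 in summer, against 15.8 and 15.9 in winter, so that summer library 2 was almost level with winter. In these 5 the seasons did not overlap, and in each the larger summer value was that of library 1.

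RPL7A and RPS4X were the 2 resolved members with a mean of at least 10 that were higher in both winter libraries. RPL7A had 113 and 128 normalized reads in summer and 143 and 136 in winter. RPS4X had 36.9 and 38.8 in summer, against 43.8 and 45.5 in winter. Its namesake RPS4, which was not resolved by library, had a higher summer mean (2068 against 1619 in winter). RPS16 had 64.0 and 119 in summer, and its winter mean has 2 solutions, 153 and 214 or 293 and 74.0. The first would put winter wholly above summer and the second would not, so its order is not settled. RPS19BP1 and RPL3L overlapped between the seasons.

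**Figure D4:**
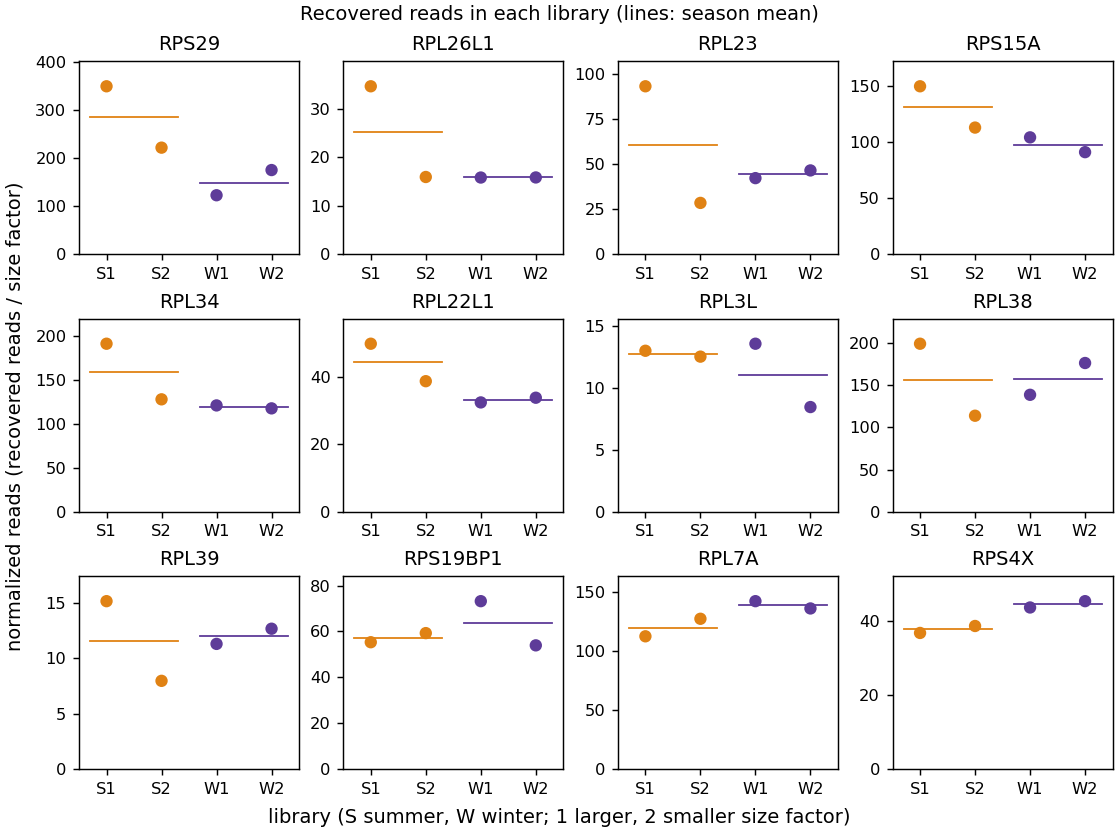
Normalized reads (recovered reads divided by the size factor, y axis from 0) are plotted in each of the 4 libraries for the 12 members resolved in both seasons with a mean of at least 10, with the season mean as a line. Summer library 1 (S1) is the highest point for RPS29, RPL26L1, RPL23, RPS15A, RPL34, RPL22L1, RPL38 and RPL39, whereas the winter libraries (W1, W2) are both highest for RPL7A and RPS4X.

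Counted over the 19 members resolved in both seasons, both summer libraries lay above both winter libraries in 7, an order found in 15.5% of the 9871 symbols resolved in both seasons. The reverse order, with winter above, was found in 4, an order found in 13.7% of those symbols. Among these 11 are RPS14, RPS28, RPL19B and RPL39L, which had 8 reads or fewer in every library. With a mean of at least 10 the counts were 5 toward summer and 2 toward winter, and 5 of 12 overlapped. Over all symbols with such a mean, 1313 of 7629 lay toward summer and 1018 toward winter, and 5298 overlapped. When members with several solutions were added wherever all of them gave the same order, 24 members overlapped and 52 of the 87 could not be placed. Of all 16053 symbols, 10876 overlapped and 2275 could not be placed.

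Summed over the 12 members resolved in both seasons with a mean of at least 10, the normalized reads came to 1301 and 906 in summer, against 862 and 914 in winter. With the deposited size factors, summer library 1 was thus the highest of the 4, and summer library 2 lay between the winter libraries. The TMM factor was larger for summer library 2 (0.959) than for summer library 1 (0.853), the reverse of the deposited order. These sums were not recomputed with other factors, so the place of summer library 2 holds for the deposited ones only. Set against each summer library alone, the winter mean of the 26 members resolved in summer had a median log2 ratio of -0.51 against library 1, with 21 of 26 lower in winter, and of -0.03 against library 2, with 15 of 26 lower in winter. These shares are 80.8% and 57.7% of the members. Among the 11858 symbols resolved in the same way, 44.1% were lower in winter against library 1, with a median of 0.09. Against library 2, 51.6% of those symbols were lower in winter, with a median of -0.02, so the members lay near all symbols there. Against both libraries together the median of the members was -0.34, with 19 of 26 lower in winter, where 53.7% of all such symbols were. The winter mean lay below both summer libraries in 15 of the 26, above both in 5 and between them in 6. In all 6 of the last, library 1 was the higher. The share of all symbols in each of these orders was not computed. Some of the 15 cleared the winter mean narrowly in library 2, as did RPL26L1 (16.0 against 15.9) and RPS27A (377 against 373).

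Members resolved in summer only fill in this picture. RPL22 had 492 and 267 normalized reads in summer against a winter mean of 289, and RPLP0 had 260.3 and 156 against 179.6. For both, the winter mean lay between the summer libraries. RPS23 had 351 and 278 against 192, RPL32 had 381 and 331 against 238, and RPL35A had 213 and 209 against 153, all with both summer libraries above the winter mean. RPS19 had 246 and 174 against 158, and RPS27A had 539 and 377 against 373. RPL35A and RPL32 differed little between the summer libraries, and their higher summer means did not rest on one of them.

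The 54 members with more reads, RPL19, RPS6 and RPS2 among them, could not be split by library. Their median log2 season ratio was -0.41, and 51 of the 54 had a lower winter mean. How much of that is library 1 was not tested.

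Genes of related function were set beside the members, from lists that were also drawn up with earlier results known. The mitochondrial ribosomal proteins, which build a separate ribosome for the mitochondrial genome, had a higher summer mean in 40 of 69, with a median log2 ratio of -0.09 and a summed summer mean 1.08 times the winter one. In the summer libraries, 30 of 66 of them were higher in library 1, with a median of -0.07. The values of these 69 thus lay near those of all symbols on both counts.

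Other mRNAs with a TOP tract were mixed, at 12 of 17 higher in summer and a median of -0.12. The elongation factor EEF1A1 had means of 17340.5 in summer and 10592 in winter (log2 ratio -0.71), its partner EEF1G had 2054 and 1394 (-0.56) and the nucleolar protein NPM1 had 596 and 338 (-0.82). Elongation factor EEF2 was lower in summer, at 5553 against 6487 (0.22), as were TPT1 at 85.3 against 122 (0.52) and HNRNPA1 at 881 against 1351 (0.62). The 17 include FAU and GNB2L1, given above, both with a higher summer mean. Of the 6 with a mean of at least 10 that were resolved in the summer libraries, 2 were higher in library 1.

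Genes of ribosome biogenesis showed no common season difference, with 23 of 47 higher in summer and 24 higher in winter, and a median log2 ratio of 0.02. In the summer libraries, however, 33 of 44 were higher in library 1, with a median of 0.25. NOP56, a core protein of the box C/D particles that guide methylation of ribosomal RNA, had 155 and 74.1 normalized reads in summer and 104 and 122 in winter. FBL, the methyltransferase of the same particles, had 175 and 103 in summer, against 118 and 162 in winter. For both genes, both winter libraries lay between the summer libraries, the order seen in RPL23 and RPL38.

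Of the genes of mTORC1 signalling, 9 of 14 had a higher winter mean, with a median log2 ratio of 0.24. RPTOR, the subunit that recruits substrates, had means of 562 in summer and 822 in winter. LARP1, which binds TOP tracts and represses their mRNAs, had 519 and 832. TSC2, an inhibitor of the pathway, had 926 and 1384, and the S6 kinase RPS6KB1 had 509.9 and 590.0. The list holds activators and inhibitors alike, so its count is not a direction of the pathway. In the summer libraries, 4 of 9 were higher in library 1.

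**Figure D5:**
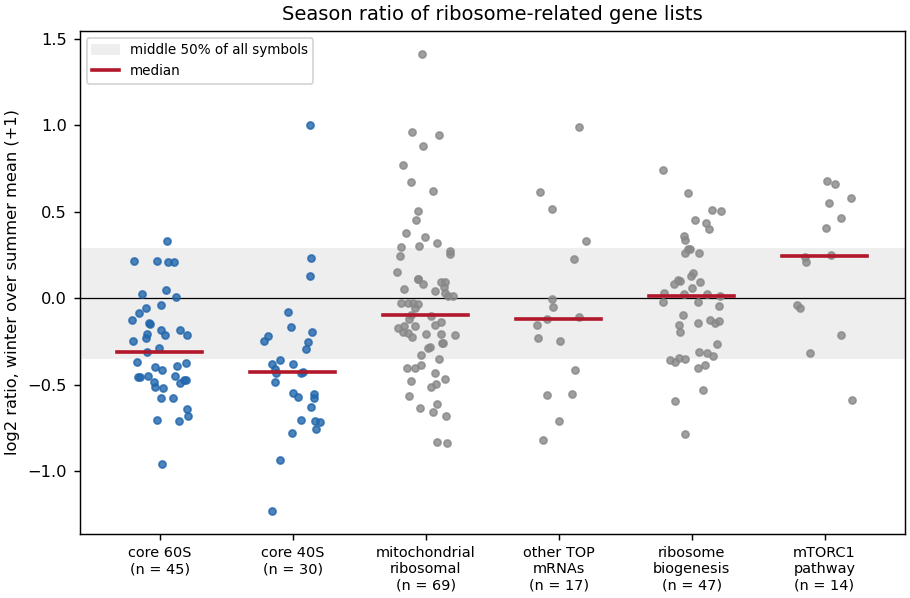
The log2 ratio of the winter over the summer mean (each plus 1, y axis) is plotted for every symbol with means in 6 lists, with the median of each list as a red line and the middle 50% of all symbols as a grey band. The medians of the core 60S and 40S proteins lie at -0.31 and -0.43, those of the mitochondrial, other TOP and biogenesis lists between -0.12 and 0.02, and that of the mTORC1 list at 0.24.

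Markers of the tissue and of its cell types moved as well. Vasopressin (listed as PUTATIVE_AVP) had means of 11822 in summer and 2559.6 in winter and oxytocin 592 and 621, so the hormones that define the nucleus were present in both seasons. Of 5 astrocyte markers, 3 had a higher summer mean, GFAP among them at 25074 against 14423. The summed summer mean of the list was 1.72 times the winter one, but GFAP made up nearly all of both sums (25517 and 14808). ALDH1L1 (119 in summer and 144 in winter) and SLC1A3 (87.5 and 96.3) had a higher winter mean. All 4 neurone markers with means were higher in winter, with sums of 2528 in summer and 3912 in winter. Oligodendrocyte markers were higher in winter in 4 of 5, microglial and endothelial markers in 2 of 5 each, and red cell genes in 1 of 3. Pituitary hormones were present too, with GH1 at 464 in summer and 1132 in winter and POMC at 1294 and 738.

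Within summer, the markers with a mean of at least 10 that could be resolved by library went both ways. All 3 neurone markers were lower in library 1, with a median log2 ratio of -1.32, as were all 4 astrocyte markers, with a median of -1.15. SNAP25, a synaptic protein, had 79.2 and 199 normalized reads in the summer libraries, and the gap junction protein GJA1 had 111 and 343. As in most ribosomal proteins, library 1 was the higher in 2 of 3 microglial markers (median 0.76), in the 1 oligodendrocyte marker (0.39), in 3 of 5 endothelial markers (median 0.09) and in 2 of 3 red cell genes (median 0.21). Of the pituitary hormones, PRL alone could be resolved with such a mean, at 298 normalized reads in library 1 and 128 in library 2. The summer libraries therefore differed in markers of cell type as well as in ribosomal proteins. The summer replicates also differed in the share of alignments that were not unique, as given above. The part of cell composition, RNA quality, non-unique alignments or animal in the values of the ribosomal proteins was not tested.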

How the data were processed

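Reads of 4 supraoptic nucleus libraries were aligned by the authors with TopHat to their own dromedary assembly and counted with HTSeq (versions not given in the sources used here). The deposited count files hold raw counts per gene model whose identifiers are not paired with gene names here, so they gave depth only, with 5 tally lines left out. The deposited table gives per symbol the mean signal of each season, which is read counts divided by DESeq size factors and averaged over 2 libraries, to 6 significant digits. Its columns of edgeR fold changes and p-values, the authors' own comparison, were not used. 

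The members and lists were chosen with earlier results of these data known, and no test was made on the season contrast. Log2 ratios used a pseudocount of 1. Named genes were those in role lists, paralogues and symbols that match by name alone, the 5 highest and 5 lowest core proteins, the 5 largest ratios in each direction with a mean of at least 10, and members whose libraries do not overlap. RPL14, RPL23, RPL32, RPL38, RPS9, RPS27 and the genes outside the members were singled out after their values were seen. Whole reads were recovered by solving each mean for 2 whole numbers of reads, given what 1 read adds to the mean in each library. Of low means, 100% could be solved in both seasons, against 1.01% (summer) and 1.26% (winter) of the same values moved slightly. That check did not cover higher means, where most resolved members lie, with summer means up to 472. The procedure was also tested on simulated data. Those were built with the same fitted size factors, so that test could not show an error in the factors. A floor of 3 reads, for counting error only, comes to 2.26 to 3.42 normalized reads per library. The study's methods give 2 animals per season, which the labels do not state. Alternatives were other scalings (edgeR 4.0.16 TMM factors in R 4.3.3, totals, upper quartile, median ratio), pseudocounts, filters, fold thresholds and leaving out each library. Scripts ran in Python 3.11.15 with numpy 2.4.6, pandas 2.3.3 and matplotlib 3.10.9. Sequences and gene lengths of the authors' assembly were not used here. A few genes are counted with the members but not reported by name or drawn with a label here.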

Additional observations from a re-analysis of the deposited data

How the results depend on the processing

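The direction of the member means stayed the same in the alternatives run, but these alternatives could hardly have changed it. Each other scaling divided all winter means by a single constant, with a log2 between -0.036 and 0.027. Such a constant leaves the balance of the summer libraries as deposited. A pseudocount cannot change which mean of a symbol is the higher. The number of members with a higher winter mean, 14, was 12 to 15 under 3 other scalings, and the median log2 ratio of -0.38 lay between -0.40 and -0.34 in 8 alternatives. The winter over summer ratio of the summed means, 0.774, lay between 0.760 and 0.793. The 6 members past a 2-fold difference became 20 at 1.5-fold, 3 at 3-fold, 2 with a mean of at least 10 and 1 with a pseudocount of 5. By construction, a higher fold, a filter or a larger pseudocount lets fewer low symbols pass. The 11 of 19 members whose libraries did not overlap became 9 with TMM factors and 7 when scaled by total recovered reads (the cause was not tested). They were 7 with a mean of at least 10, where 12 members were left. Over all symbols with the deposited factors, 1528 of 9871 lay toward summer and 1349 toward winter. With a mean of at least 10, these were 1313 and 1018 of 7629. Shares over all symbols with the other factors are not given here.

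The median season ratio of the resolved members moved most when summer library 1 was left out. The winter mean lay below both summer libraries in 15 of the 26 resolved in summer, a count with no share over all symbols beside it. The median log2 ratio was -0.20 for 19 members, -0.17 with TMM factors and -0.11 with totals. Without summer library 1 it was -0.01. In alternatives chosen after seeing the data, it was -0.30 for the 12 members with a mean of at least 10, 0.045 without summer library 1, which reverses the sign, and -0.46 without summer library 2. For the 26 members resolved in summer it was -0.51 against summer library 1 alone and -0.03 against library 2 alone. All symbols with a mean of at least 10 that were resolved in summer had 0.09 and -0.02. Leaving out single libraries thus gave medians of the resolved members between -0.51 and 0.045. No paired analysis was possible because the winter and summer animals were different animals, and no test was made.

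Depth limits RPS14, RPS18, RPL10L, RPL19B and RPL39L, which lie near the 3-read floor, and 54 members with more reads could not be resolved in summer.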
